A study of Mus musculus with 8 samples.

Results

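The 10 genes described here encode enzymes that build or break down the galactolipids of myelin: *Sptlc1*, *Sptlc2* and *Kdsr* for sphingoid base synthesis, *Cers2*, *Degs1* and *Fa2h* for ceramide formation, *Ugt8a* and *Gal3st1* for galactolipid assembly, and *Galc* and *Arsa* for breakdown. They were found by symbol in a table of 23427 entries that gives FPKM, a level corrected for transcript length and for the mapped fragments of the library. Of these, 9 stood under their own symbol and *Cers2* under its older symbol *Lass2*. The mRNA came from primary oligodendrocyte precursor cells (OPCs) of wild-type (WT) C57BL/6J mice, sampled daily from Day 0 to Day 3 while they became oligodendrocytes (OLs), with 2 replicates per day. Cortical tissue was pooled from 3 pups (postnatal day 7), and OPCs were caught on plates that carried an antibody to their surface receptor PDGFRα (immunopanning). Day 0 is the start of differentiation, at which growth factors were removed and the thyroid hormone T3 was added at 40 ng/mL, so the effect of T3, of growth factor removal and of time in culture cannot be told apart. The study describes the replicates as independent, while the labels do not tie a replicate to a cell preparation, and the p-values measure only the spread between these libraries.

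Myelin is unusually rich in galactosylceramide and in its sulfated form, sulfatide. Both begin with serine palmitoyltransferase (SPT), which joins serine to a fatty acid in the endoplasmic reticulum, and pass through dihydroceramide and ceramide before a galactose and, for sulfatide, a sulfate group are added. Ceramide can instead receive a phosphocholine head to become sphingomyelin, or a glucose to become the base of the gangliosides. In lysosomes arylsulfatase A removes the sulfate and galactosylceramidase the galactose, and their loss causes metachromatic leukodystrophy and Krabbe disease.

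RefSeq promoter windows (GRCm38.p6, from 250 bases before to 50 after each transcript start) were at hand for 9 of the 10 genes, in 12 windows, and *Fa2h* had no entry. They were searched on both strands for letters bound by OL and lysosomal transcription factors. The E-box CACGTG, which reads the same on both strands, stood in windows of *Degs1*, *Cers2* and *Arsa*, and in 7.15% of all 32851 promoter windows. The 30 bases around it are shown because windows of *Degs1* and *Cers2*, which both rose, and of *Arsa*, which did not pass the test, hold the same letters. The window of *Degs1* and that of *Cers2* belong to RefSeq starts that lie inside the wider GENCODE gene spans given below. They are written 5′ to 3′ on the strand of the gene, with the E-box in capitals.
Degs1, chr1:182282221-182282250, minus strand: gggagcctcaatCACGTGgtccagtcagct
Cers2, chr3:95315049-95315078, plus strand: cgccctgcggggCACGTGccacccgccccg
Arsa, chr15:89477423-89477452, minus strand: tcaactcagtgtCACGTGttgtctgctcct
The SOX-type letters ACAAAG were in a window of *Sptlc1* (18.7% of all windows) and ACAATG in windows of *Gal3st1* (12.6%). The MYRF-type letters CTGGCAC and CTGGTAC, held by 5.01% and 2.24% of all windows, were in none of the 12. A match is a description of the sequence and not a measured binding site.

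The depth, read from the steps between low FPKM values, was about 950000 to 1530000 fragments per library. At that depth *Ugt8a* rested on about 506 to 3372 fragments per library, *Fa2h* on 31 to 398, *Kdsr* on 25 to 39 and *Arsa* on 14 to 29. The cells followed their labels: the summed FPKM of 6 OL myelin protein genes went from 1074 and 787 on Day 0 to 18963 and 26846 on Day 3, and that of 4 OPC genes from 1002 and 1035 to 261 and 162. Among markers of other cells, 5 of 7 microglial genes were listed at 0 in every library, and all 5 endothelial genes and all 6 mural and fibroblast genes stayed under 1 FPKM. Of 5 neuronal genes 1 was at 0 in every library, and their sum was 21.8 and 29.9 FPKM on Day 0 and 10.8 and 17.7 on Day 3. All 7 astrocyte genes were detected, and their sum was higher in replicate 2 than in replicate 1 on every day, from 120 against 354 FPKM on Day 0 to 148 against 952 on Day 3. In bulk RNA a larger share of a cell type and more mRNA per cell cannot be told apart.

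Over the whole course, *Fa2h*, *Ugt8a*, *Degs1*, *Cers2*, *Sptlc2* and *Gal3st1* were higher on Day 3 than on Day 0, and none of the 10 genes was lower (limma on log2(FPKM + 1), Benjamini-Hochberg adjusted p under 0.05 over 12208 genes). All 10 passed the filter of at least 1 FPKM in at least 2 libraries. Of all genes tested, 12% were called higher and 26.3% lower, 1460 and 3207 genes. The median log2 fold change was 0.74 over the 10 enzyme genes and -0.31 over all genes. The lower centre of all genes depended on the scaling: with median ratio scaling the median was -0.04 and the split 2135 higher and 2047 lower, and 7 of the 10 enzyme genes were then called, *Sptlc1* being added. With quantile normalization the split was 2071 higher and 2194 lower, and 9 of the 10 were called, all but *Galc*. The changes below are on the deposited scale, where a gene that kept pace with the median gene has a value of -0.31.

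**Figure D1:**
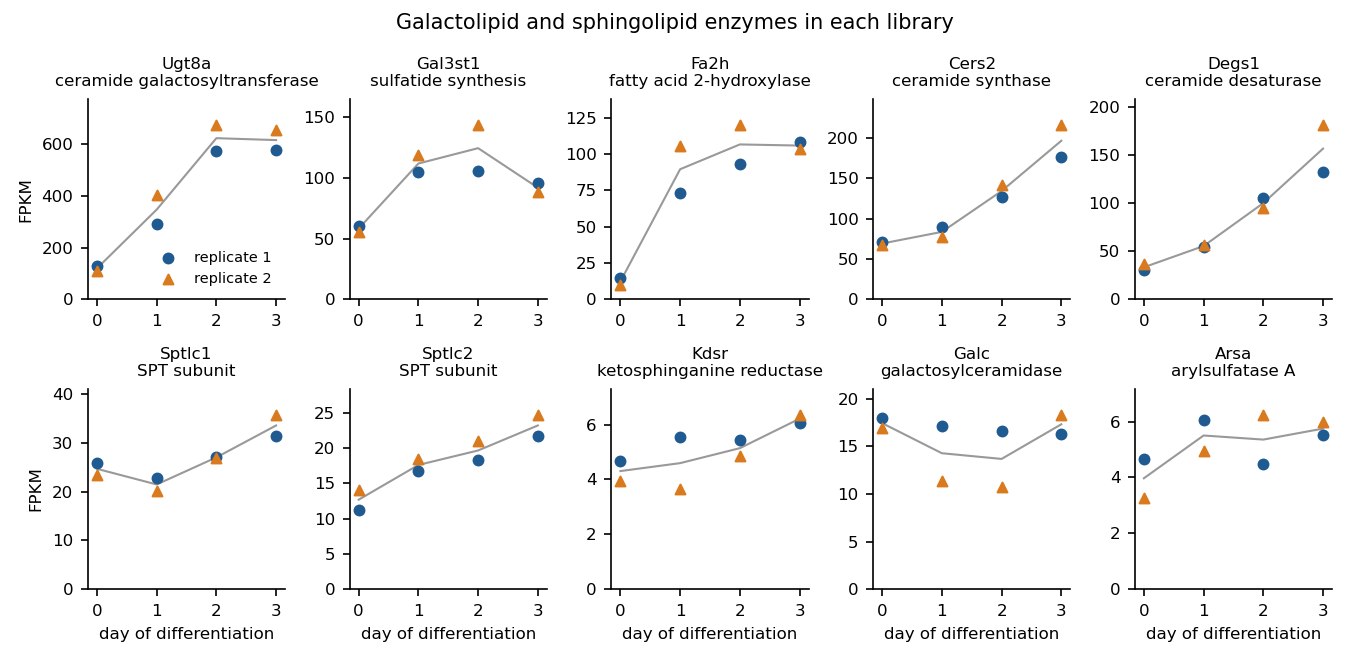
FPKM of each enzyme gene (y axis, from 0, own scale per panel) against the day of differentiation (x axis), with circles for replicate 1, triangles for replicate 2 and a grey line through the mean of each day. Ugt8a and Fa2h had made most of their rise by Day 2, Cers2 and Degs1 were highest on Day 3, Gal3st1 was highest on Day 2, and Galc and Arsa stayed within 10.7 to 18.3 and 3.27 to 6.24 FPKM.

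*Ugt8a* (chr3:125865271-125938619, minus strand, GENCODE M21 on GRCm38) encodes the galactosyltransferase that turns ceramide into galactosylceramide, and it had the highest FPKM of the 10 genes on each day. Day 0 gave 128 and 111 FPKM, Day 1 gave 292 and 402, Day 2 gave 572 and 674, and Day 3 gave 577 and 655. The libraries of Day 0, Day 1 and Day 2 did not overlap with each other, while those of Day 2 and Day 3 did. The mean on Day 3 was 5.15 times that of Day 0, a log2 fold change of 2.36 ± 0.18 (SE, n = 2 per day, adjusted p = 9.82e-05), or 2.67 above the median gene.

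*Gal3st1* (chr11:3983636-3999326, plus strand) encodes the sulfotransferase that makes sulfatide from galactosylceramide. Its FPKM started at 60.8 and 55.8 on Day 0, then stood at 105 and 119 (Day 1), 106 and 144 (Day 2), and 95.8 and 88.3 (Day 3). All 6 later libraries were above Day 0, and both libraries of Day 3 were below those of Day 1 and Day 2. From Day 0 to Day 3 the log2 fold change was 0.65 ± 0.17 (SE, n = 2 per day, adjusted p = 0.0163). That call was lost when Day 0 replicate 1, Day 0 replicate 2 or Day 3 replicate 1 was left out (adjusted p = 0.0563, 0.0966 and 0.0649). The drop from Day 2 to Day 3 did not pass the test (-0.42 ± 0.17, adjusted p = 0.305).

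*Fa2h* (chr8:111345135-111393824, minus strand) encodes the fatty acid hydroxylase that supplies the hydroxylated chains typical of myelin galactolipids, and it had the largest change of the 10 genes from Day 0 to Day 3. From 14.4 and 10.1 FPKM on Day 0 it went to 73.3 and 106 (Day 1), 93.2 and 120 (Day 2), and 108 and 103 (Day 3). All 6 later libraries were above both of Day 0, and the 3 later days overlapped. Day 3 exceeded Day 0 by a log2 fold change of 3.03 ± 0.23 (SE, n = 2 per day, adjusted p = 8.42e-05). On Day 1 the mean was already 7.30 times that of Day 0.

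*Cers2* (chr3:95314791-95323599, plus strand) encodes the ceramide synthase that favours very long fatty acid chains. It was listed at 71.4 and 66.7 FPKM on Day 0, then at 89.3 and 77.5 (Day 1), 127 and 141 (Day 2), and 177 and 216 (Day 3), so that no library of a day overlapped with those of another. Day 3 exceeded Day 0 by a log2 fold change of 1.49 ± 0.15 (SE, n = 2 per day, adjusted p = 2.22e-04). Exons of *Cers2* share 75 bases with *Setdb1* and 144 with an antisense gene, both on the opposite strand. *Setdb1* was listed at 11.5 to 26.2 FPKM, and its part in the value of *Cers2* was not tested.

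*Degs1* (chr1:182275772-182282804, minus strand) encodes the desaturase that converts dihydroceramide into ceramide. It went from 29.9 and 36.6 FPKM on Day 0 to 54.5 and 56.2 (Day 1), 105 and 95.1 (Day 2), and 132 and 181 (Day 3). As with *Cers2*, the libraries of the 4 days were separate. The whole rise was a log2 fold change of 2.19 ± 0.18 (SE, n = 2 per day, adjusted p = 1.18e-04), a mean 4.71 times higher on Day 3.

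Of the 3 genes of sphingoid base synthesis, 1 was called higher, beside 12% of all genes. *Sptlc2* (chr12:87305058-87388355, minus strand), the catalytic subunit of SPT, was at 11.3 and 14.1 FPKM on Day 0, then at 16.7 and 18.5 (Day 1), 18.4 and 21.0 (Day 2), and 21.7 and 24.7 (Day 3), without overlap between Day 0 and any later day. It rose by a log2 fold change of 0.83 ± 0.19 (SE, n = 2 per day, adjusted p = 0.00922), a call lost without Day 0 replicate 1 or Day 3 replicate 2 (adjusted p = 0.0730 and 0.0533). *Sptlc1* (chr13:53332748-53377397, minus strand), its partner subunit, was at 25.9 and 23.5 FPKM on Day 0, then at 22.8 and 20.1 (Day 1), 27.2 and 26.9 (Day 2), and 31.4 and 35.7 (Day 3). Its Day 3 libraries were above all others, and its log2 fold change was 0.43 ± 0.16 (adjusted p = 0.0599), which passed the threshold only when the libraries were rescaled to the same sum (adjusted p = 0.0230), by median ratio (0.00859) or by quantiles (0.0176). *Kdsr* (chr1:106720459-106759727, minus strand), the reductase that follows SPT, stayed between 3.64 and 6.36 FPKM, with a log2 fold change of 0.45 (95% interval -0.19 to 1.08, adjusted p = 0.234). It passed only with quantile normalization (0.93, adjusted p = 0.0259).

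The lysosomal enzymes did not pass the test between Day 0 and Day 3. *Galc* (chr12:98202294-98259459, minus strand), the galactosylceramidase, was at 18.0 and 16.9 FPKM on Day 0, then at 17.2 and 11.4 (Day 1), 16.6 and 10.7 (Day 2), and 16.3 and 18.3 (Day 3), so that the first and the last day overlapped. Its log2 fold change was -0.01 (95% interval -0.61 to 0.59, adjusted p = 0.979), and its sign turned to a rise of 0.29 with median ratio scaling. *Arsa* (chr15:89472476-89477425, minus strand), the arylsulfatase, was at 4.67 and 3.27 FPKM on Day 0, then at 6.07 and 4.93 (Day 1), 4.47 and 6.24 (Day 2), and 5.51 and 5.98 (Day 3), with a log2 fold change of 0.46 (95% interval -0.20 to 1.11, adjusted p = 0.241). *Arsa* passed only with quantile normalization (0.94, adjusted p = 0.0359). These intervals leave room for changes of either sign, and for *Arsa* of more than a doubling. An antisense gene shares 690 exonic bases with *Arsa* and another shares 400 with *Galc*. Whether fragments were counted by strand is not given in the sources used here.

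Each assembling enzyme was then set against the enzyme that undoes its step. The ratio of *Ugt8a* to *Galc* FPKM was 7.12 and 6.56 on Day 0, 17.0 and 35.3 (Day 1), 34.4 and 62.7 (Day 2), and 35.3 and 35.8 (Day 3), and every later library was above Day 0. The difference of their log2(FPKM + 1) values rose by 0.80 per day (exact permutation test over all arrangements of the 8 libraries, two-sided p = 0.0103, and 0.0206 adjusted over the 2 pairs). The adjusted p was 0.0603 without either library of Day 0 and 0.0794 without Day 1 replicate 1 or Day 2 replicate 1, and so past the threshold no longer. By itself *Galc* had a slope of -0.01 per day and *Ugt8a* of 0.79, so this pair mostly restates the rise of *Ugt8a* in the same libraries. The ratio of *Gal3st1* to *Arsa* was 13.0 and 17.1 on Day 0, 17.3 and 24.1 (Day 1), 23.6 and 23.0 (Day 2), and 17.4 and 14.8 (Day 3). Its first and last days overlapped, and its slope of 0.08 per day did not pass the test (exact p = 0.505, adjusted 0.505).

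**Figure D2:**
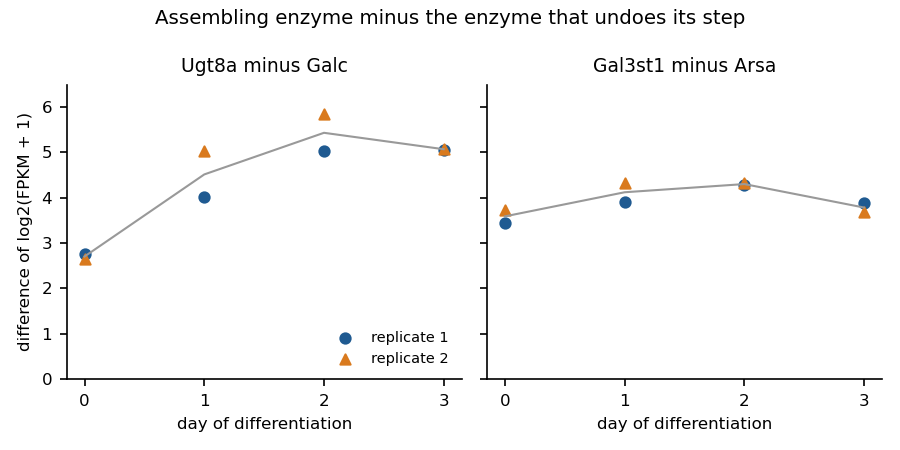
Difference of log2(FPKM + 1) between the assembling enzyme and the enzyme that undoes its step (y axis) against the day of differentiation (x axis), with circles for replicate 1, triangles for replicate 2 and a grey line through the mean of each day. Ugt8a moved away from Galc from 2.77 and 2.64 on Day 0 to 5.06 and 5.09 on Day 3, while Gal3st1 minus Arsa was 3.45 and 3.74 on Day 0 and 3.89 and 3.68 on Day 3.

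The rise was divided into daily steps. From Day 0 to Day 1, 4 of the 10 genes rose (*Fa2h*, *Ugt8a*, *Gal3st1* and *Degs1*) and none fell, against 5.04% of all genes called higher. The log2 fold changes were 2.77 ± 0.23 for *Fa2h* (adjusted p = 7.52e-04), 1.51 ± 0.18 for *Ugt8a* (0.00159), 0.93 ± 0.17 for *Gal3st1* (0.00873) and 0.72 ± 0.18 for *Degs1* (0.0323), with n = 2 per day and the median gene at -0.07. *Fa2h* ranked 12th among the 12208 genes by this change. The call of *Degs1* was lost without any of the libraries of Day 0, Day 1 or Day 2 (adjusted p from 0.0523 to 0.206), without the variance trend and in a fit of these days alone (0.0886 and 0.0514), and that of *Gal3st1* without Day 0 replicate 1, Day 0 replicate 2 or Day 1 replicate 2 (0.0520, 0.0772 and 0.0621). *Sptlc2* and *Cers2* had changes of 0.45 and 0.27 that did not pass (adjusted p = 0.167 and 0.296).

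From Day 1 to Day 2, *Ugt8a*, *Degs1* and *Cers2* rose, 3 of the 10 genes against 2.16% of all genes. Their log2 fold changes were 0.86 ± 0.18, 0.84 ± 0.18 and 0.68 ± 0.15 (SE, n = 2 per day, adjusted p = 0.0431, 0.0423 and 0.0449), while *Fa2h* changed by 0.26 ± 0.23 (adjusted p = 0.533). These 3 calls were close to the threshold. None was made with a pseudocount of 0.1, without the filter, without the trend in the variance, in a fit of these days alone or when either library of Day 0 or Day 2 or Day 1 replicate 1 was left out, and only *Ugt8a* was called without Day 1 replicate 2 or with quantile normalization. The adjusted p-values of the lost calls were between 0.0508 and 0.263. With the replicate number as a block, the same 3 enzyme genes were called while the count over all genes went from 475 to 803.

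From Day 2 to Day 3 limma called 0 of the 10 genes. Of all genes 0.295% were called in either direction (36 genes, or 163 with the replicate number as a block). At an unadjusted p under 0.05 there were 3 of the 10 and 1773 of all 12208 genes. *Degs1* and *Cers2* had changes of 0.63 ± 0.18 and 0.54 ± 0.15 (adjusted p = 0.161 and 0.148). The change of *Fa2h* was 0.00 ± 0.23 and that of *Ugt8a* -0.02 ± 0.18.

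**Figure D3:**
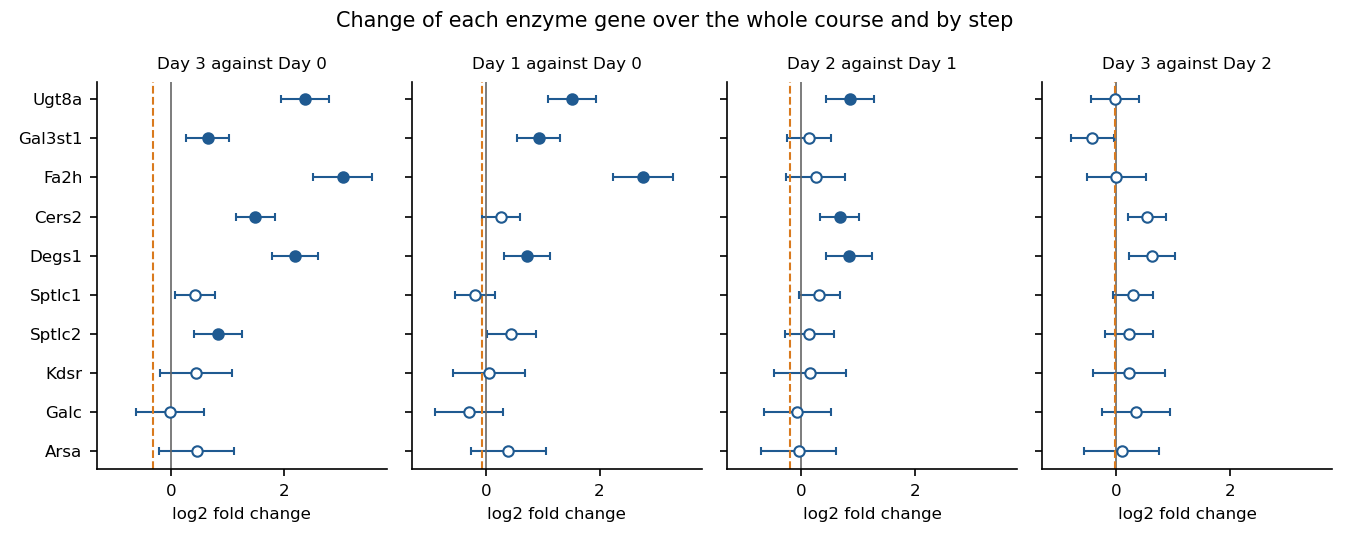
Log2 fold change of log2(FPKM + 1) (x axis) of each enzyme gene over the whole course and over each daily step, with bars for the 95% interval and filled circles for adjusted p under 0.05. The dashed line is the median of all 12208 genes and the solid line is 0. Fa2h changed by 2.77 in the first step and by 0.26 in the next, and Cers2 by 0.27 and 0.68.

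The test of the difference between the first steps gave 1 call among the 10 genes. The change of *Fa2h* from Day 1 to Day 2 was smaller than that from Day 0 to Day 1 by 2.50 ± 0.39 on the log2 scale (adjusted p = 0.0368, difference -2.50), a contrast in which 0.36% of all genes were called lower (44 of 128 called in either direction, and 369 with the replicate number as a block). This call was lost with a pseudocount of 0.1, without the filter and without the variance trend, and without either library of Day 0 or Day 2 or Day 1 replicate 2 (adjusted p from 0.0563 to 0.246). The differences were -0.79 ± 0.29 for *Gal3st1*, -0.66 ± 0.32 for *Ugt8a* and 0.41 ± 0.26 for *Cers2*, and none of these passed (adjusted p = 0.232, 0.368 and 0.491).

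The share of its own rise from Day 0 to Day 3 that a gene had made on a given day, on the log2(FPKM + 1) scale, was computed for the 6 genes that rose. On Day 1 the mean share was 91.3% for *Fa2h*, and the shares in replicates 1 and 2 were 54.4% and 74.1% for *Ugt8a*, 45.8% and 62.8% for *Sptlc2*, 32.1% and 34.0% for *Degs1* and 24.7% and 11.1% for *Cers2*. *Gal3st1* exceeded its Day 3 level on Day 1, at 130% and 156%. As a yardstick from myelin protein genes, the mean share on Day 1 was 65.8% for *Cnp*, a phosphodiesterase of non-compact myelin, and 35.6% for *Mbp*, which compacts the membrane. It was 14.2% for *Mobp*, another protein of compact myelin. *Ugt8a* (mean 64.3%) thus lay beside *Cnp*, and *Cers2* (17.9%) beside *Mobp*. On a linear FPKM scale the shares are lower for all of these genes but *Gal3st1*, with 82.6% for *Fa2h*, 45.8% for *Ugt8a*, 11.3% for *Cers2*, 48.3% for *Cnp* and 3.54% for *Mbp*.

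**Figure D4:**
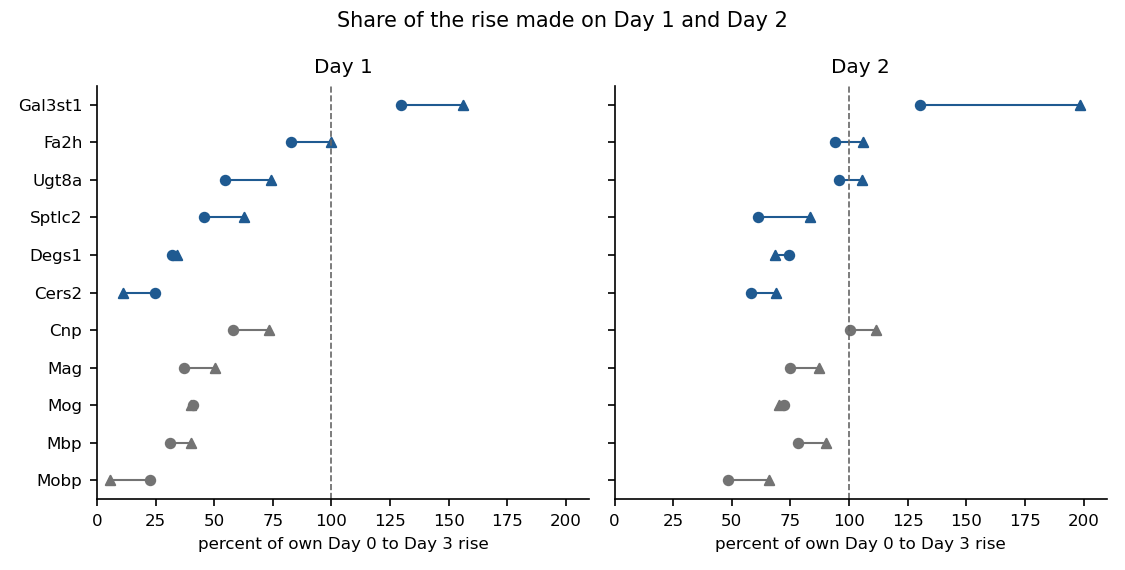
Share of the rise from the Day 0 mean to the Day 3 mean (x axis, percent, log2(FPKM + 1) scale) made on Day 1 and on Day 2, with circles for replicate 1, triangles for replicate 2, blue for enzyme genes and grey for myelin protein genes. The dashed line marks 100%. On Day 2 Ugt8a and Cnp had means of 101% and 106%, and Cers2 and Mobp of 63.6% and 57.1%.

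A trend over the days was tested with the slope on day, by exact permutation over all arrangements of the libraries and adjustment over all genes. This test asks whether there is a slope, and not whether the rise was steady. *Degs1*, *Cers2*, *Ugt8a* and *Sptlc2* were called, 4 of the 10 genes against 6.93% of all genes called with a rising slope. *Degs1* rose by 0.74 and *Cers2* by 0.51 on the log2 scale per day, both at the smallest p that this test can give (exact p = 0.000794, adjusted 0.0145). *Ugt8a* rose by 0.79 per day (exact p = 0.00317, adjusted 0.0251) and *Sptlc2* by 0.26 (exact p = 0.00159, adjusted 0.0188). *Fa2h* had the steepest slope, 0.93 per day, and just missed the threshold (exact p = 0.0119, adjusted 0.0505). It passed with median ratio scaling (adjusted p = 0.0368). It did not pass on ranks, with a pseudocount of 0.1 or with days permuted only within replicate numbers (adjusted p = 0.142, 0.0511 and 0.0712). The call of *Ugt8a* was lost on ranks (adjusted p = 0.0548) and without Day 0 replicate 1, Day 0 replicate 2 or Day 2 replicate 1 (0.0528, 0.0546 and 0.0624), and that of *Sptlc2* without Day 3 replicate 2 (0.0533). With permutation only within replicate numbers, 3 of the 10 genes were called, *Ugt8a* being lost (adjusted p = 0.0557), and the count over all genes went from 2785 to 1855.

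The order of the genes by FPKM, which is scaled for transcript length, also changed over time. On Day 0 it ran from *Ugt8a* (mean 120 FPKM) through *Cers2* (69.0), *Gal3st1* (58.3), *Degs1* (33.2), *Sptlc1* (24.7), *Galc* (17.4), *Sptlc2* (12.7) and *Fa2h* (12.3) to *Kdsr* (4.31) and *Arsa* (3.97), and among neighbours *Sptlc2* overlapped with *Fa2h*, and *Kdsr* with *Arsa*. On Day 3 *Ugt8a* (616 FPKM) was followed by *Cers2* (196), *Degs1* (157), *Fa2h* (106) and *Gal3st1* (92.0), and of these only *Cers2* and *Degs1* overlapped. *Fa2h* went from the eighth to the fourth place and *Gal3st1* from the third to the fifth. *Sptlc1*, *Sptlc2*, *Galc*, *Kdsr* and *Arsa* held the lower places on Day 3.

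Between the replicate numbers limma called 0 of the 10 enzyme genes, beside 1.05% of all genes, a share at which no call among 10 is usual. At an unadjusted p under 0.05 there were 0 of the 10 and 1447 of all 12208 genes. The course in each replicate is given beside its astrocyte sum, and any part of astrocytes in it was not tested. Behind the sum of replicate 1, genes went both ways from Day 0 to Day 3. *Gfap* went from 14.7 to 45.5 FPKM and *Slc1a3* from 32.5 to 17.0. In replicate 1, in which that sum was 120 FPKM on Day 0 and 148 on Day 3, *Ugt8a* went from 128 to 577 FPKM, *Fa2h* from 14.4 to 108, *Degs1* from 29.9 to 132 and *Cers2* from 71.4 to 177. In replicate 2 the same genes went from 111 to 655, from 10.1 to 103, from 36.6 to 181 and from 66.7 to 216 FPKM, beside an astrocyte sum that went from 354 to 952.

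The genes most like the lead enzymes over the 8 libraries were sought among 8200 genes that reached 10 FPKM in at least 1 library, by Pearson's r of log2(FPKM + 1). All points share their libraries and a common day course, so these values are a description. For *Ugt8a* they were *Tmem88b*, *Cnp* and *Fmnl2* (r of 0.999, 0.999 and 0.996), for *Fa2h* *Clip3*, *Man1c1* and *Lcorl* (0.998, 0.995 and 0.993) and for *Gal3st1* *Pias4*, *Dpysl2* and *Myl6* (0.987, 0.982 and 0.976). *Tmem88b*, a membrane protein gene, went from 30.6 and 23.7 FPKM on Day 0 to 211 and 265 on Day 3. *Dpysl2*, which encodes a cytoskeletal regulator, peaked at 198 and 234 FPKM on Day 2, the day on which *Gal3st1* was highest, and stood at 158 and 147 FPKM a day later.

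The rest of sphingolipid metabolism was followed in 8 lists with 56 genes, of which 50 were tested. From Day 0 to Day 3, 10 of the 50 rose and 11 fell, with a median log2 fold change of -0.03, where 12% of all genes were called higher and 26.3% lower. With median ratio scaling the split of the 50 turned to 17 higher and 7 lower. The list of glucosylceramide and gangliosides had 6 of its 8 genes lower, 0 higher and a median of -1.24. *St3gal5*, which makes the ganglioside GM3, was at 12.54 and 12.03 FPKM on Day 0 and 2.87 and 0.467 on Day 3 (log2 fold change -2.48 ± 0.42, adjusted p = 0.00245). *St8sia1*, the GD3 synthase known from OPCs, fell by 2.41 ± 0.54, and *B4galt5*, a lactosylceramide synthase, fell by 1.78 ± 0.25 on the log2 scale (adjusted p = 0.00864 and 0.00111). *Ugcg*, the glucosylceramide synthase that shares ceramide with Ugt8a, was at 22.4 and 21.3 FPKM on Day 0 and 12.8 and 14.9 on Day 3 (-0.62 ± 0.18, adjusted p = 0.0252). With the 3 other scalings 4 or 5 of the 8 genes were lower and up to 1 higher, and *St3gal5*, *St8sia1* and *B4galt5* were still called lower while *Ugcg* was not (adjusted p from 0.0781 to 0.210). The call of *Ugcg* was also lost without Day 0 replicate 1, Day 0 replicate 2 or Day 3 replicate 1 (0.123, 0.0901 and 0.0991), and that of *St8sia1* without Day 0 replicate 1 or Day 3 replicate 2 (0.0642 and 0.0518).

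Among 7 sphingomyelin genes, 1 rose and 2 fell, beside 12% and 26.3% of all genes, and with median ratio scaling or quantile normalization 2 were higher and 1 lower. *Sgms2*, a sphingomyelin synthase, went from 1.01 and 1.97 FPKM on Day 0 to 22.1 and 31.9 (Day 2) and 18.8 and 17.1 (Day 3, log2 fold change 2.96 ± 0.41, adjusted p = 9.67e-04). The sphingomyelinases *Smpd4* and *Smpd3* had changes of -1.15 ± 0.25 and -0.96 ± 0.33 (adjusted p = 0.00718 and 0.0481), and the call of *Smpd3* was lost with a pseudocount of 0.1, without the filter, under the 3 other scalings, in a fit of these days alone and when any library but Day 2 replicate 1 was left out. Of 6 tested genes of ceramidases and sphingosine phosphate, 1 rose and 0 fell, beside the same 12% and 26.3% of all genes. *Cerk*, the ceramide kinase, rose from 16.3 and 19.7 to 85.7 and 62.9 FPKM (1.97 ± 0.19, adjusted p = 1.92e-04).

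The list of lysosomal breakdown and activators had 3 genes higher and 3 lower of 11, the latter near the 26.3% of all genes, and 4 higher and 1 lower with median ratio scaling. *Psap*, the precursor of the saposins that assist galactosylceramidase and arylsulfatase A, went from 218 and 198 FPKM on Day 0 to 484 and 479 (1.21 ± 0.15, adjusted p = 5.52e-04). *Neu1*, a sialidase, rose by 1.10 ± 0.28 (adjusted p = 0.0155), a call lost without Day 0 replicate 2 or Day 3 replicate 2 (0.105 and 0.0797). *Gm2a*, the GM2 activator, *Glb1*, the galactosidase of gangliosides, and *Gba2*, a glucosylceramidase outside lysosomes, fell by 1.24 ± 0.26, 0.76 ± 0.23 and 0.69 ± 0.22 on the log2 scale (adjusted p = 0.00638, 0.0328 and 0.0370). With the 3 other scalings only *Gm2a* of these was still called lower. *Glb1* was not called without any library of Day 0 or Day 3 (adjusted p from 0.0799 to 0.147), nor *Gba2* without any library but Day 3 replicate 1 (0.0508 to 0.220).

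Of 6 tested genes that supply donors for the head groups, 3 rose and 0 fell, beside 12% and 26.3% of all genes. *Slc35a2*, the carrier of UDP-galactose into the Golgi and endoplasmic reticulum, went from 14.2 and 13.9 FPKM to 39.1 and 46.2 (1.53 ± 0.19, adjusted p = 6.05e-04). *Ugp2*, which makes UDP-glucose, rose by 0.99 ± 0.22, and *Slc35b2*, the Golgi carrier of the sulfate donor, by 0.65 ± 0.14 (adjusted p = 0.00897 and 0.00666), both lost without Day 0 replicate 1 (0.0524 and 0.0530) and *Ugp2* also without Day 3 replicate 2 (0.0558). Of 3 genes for proteins that bind galactolipids, 2 rose and 0 fell, beside the same 12% and 26.3% of all genes. *Gltp*, the glycolipid transfer protein, rose from 173 and 174 to 665 and 702 FPKM (1.97 ± 0.15, adjusted p = 9.85e-05). *Mal*, a proteolipid that associates with sulfatide, was listed at 0 and 0.312 FPKM on Day 0 and at 20.1 and 65.4 on Day 3 (5.03 ± 0.54 on the log2(FPKM + 1) scale, adjusted p = 3.06e-04).

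None of the 4 tested genes of SPT subunits and their ORMDL regulators and none of the 5 other ceramide synthase and desaturase genes passed the test by limma. Of all genes 38.2% were called in either direction. With the replicate number as a block, *Ormdl2* and *Cers1* were called higher (adjusted p = 0.0441 and 0.0352, against 0.0809 and 0.0615 without it) and *Cers4* lower (0.0239 against 0.0855). *Ormdl2* was also called higher with median ratio scaling and quantile normalization (0.0240 and 0.0108) and *Cers1* with median ratio scaling (0.0471). *Cers1* was listed at 1.64 and 39.3 FPKM on Day 0 and shares its transcript with *Gdf1*, as described at the end. Its calls should therefore not be read as a rise of that enzyme. *Cers4* was called lower without Day 3 replicate 1 (0.0194). *Sptlc3* and *Sptssb* were listed at 0 in every library.

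**Figure D5:**
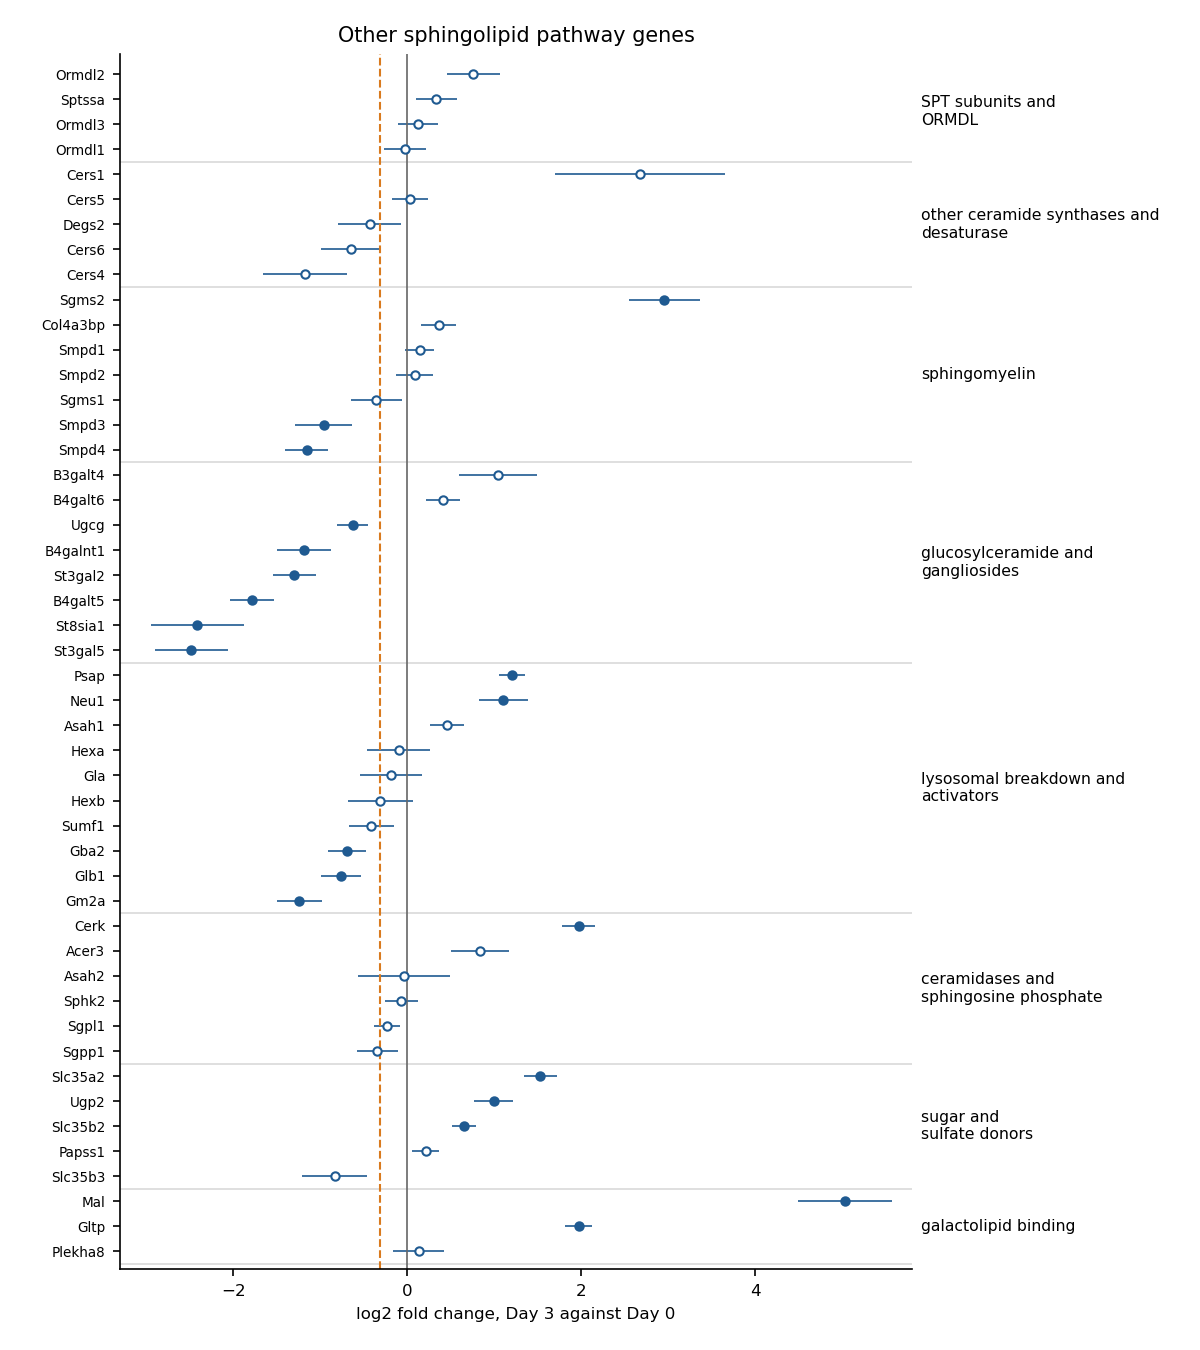
Log2 fold change of log2(FPKM + 1) from Day 0 to Day 3 (x axis) of tested genes in 8 lists of sphingolipid metabolism (y axis, some genes not shown), with bars for the standard error and filled circles for adjusted p under 0.05. The dashed line is the median of all genes, -0.31. The list of glucosylceramide and gangliosides has 6 filled circles left of 0, and the list of donors has 3 right of 0.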

How the data were processed

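Poly(A) mRNA libraries of mouse primary OPCs were prepared with a stranded kit and read as 75-nt paired ends, 2 per day on Day 0 to Day 3. According to the methods, the software was OmicSoft ArrayStudio, and the authors deposited FPKM per gene with a column per library. The submitters' processing notes name the build mm10. The aligner, the gene model and the use of strand in counting are not given in the sources used here. The DESeq2 test of the methods needs counts and was not used. Depth came from the spacing of low FPKM values, of which 65.3% to 70.9% per library lay within 0.1 of a whole fragment, so precision at low FPKM is limited by a few fragments.

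Genes with at least 1 FPKM in at least 2 libraries (12208) were tested on log2(FPKM + 1) with limma 3.58.1 in R 4.3.3 (trend in the variance), with all 8 libraries, the day as a factor and Benjamini-Hochberg adjustment. Slopes and pairs were tested by exact permutation in Python 3.11.15 (numpy 2.4.6, pandas 2.3.3). The fit was first tested on simulated data for Day 3 against Day 0. It recovered 5 of 50 changes of 0.5 on the log2 scale, 26 of 50 of 1, 44 of 50 of 2 and 47 of 50 of 3. In that simulation 126 genes were called, 4 of them falsely. A change near 0.5 was thus mostly missed in the simulation. Far fewer genes were changed there than the 4667 called in the data, so the adjustment was stricter. These shares therefore do not carry over to the real comparison. Replicate differences correlated between days in all 6 pairs of days (r 0.164 to 0.285), although nothing says that a number marks a shared isolation. The replicate number was used as a block only in an alternative. The main fits and permutations of the days did not pair the libraries.

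Alternatives were another pseudocount (0.1), filter, scaling, block, variance model, fit of only the days compared, and each library left out. For the comparison of replicate numbers, leaving out libraries was chosen after seeing the data. The members and lists were chosen with earlier results of these data known. Named genes are the 10 enzymes, up to 3 called genes per direction in each pathway list, 6 myelin protein genes, and the 3 genes most like *Ugt8a*, *Gal3st1* and *Fa2h*. *Ugcg*, *Ormdl2*, *Cers1*, *Cers4*, *Sptlc3*, *Sptssb* and *Setdb1* were named after their values were seen. Symbols *Cers1* to *Cers6* were matched to *Lass1* to *Lass6* through RefSeq synonyms once the table was seen. Results that need a withheld item are not reported here, and counts over lists include every listed gene.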

Additional observations from a re-analysis of the deposited data

How the results depend on the processing

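The log2 fold changes of *Fa2h*, *Ugt8a*, *Degs1* and *Cers2* from Day 0 to Day 3 stayed past the threshold under all 17 alternatives, and the replicate block changed the call of none of the 10 enzyme genes in any limma comparison. Leaving out each library in turn left 4 to 6 of the 10 genes called from Day 0 to Day 3, 2 to 4 from Day 0 to Day 1, 0 to 3 from Day 1 to Day 2, 0 to 0 from Day 2 to Day 3, 0 to 1 for the difference between the first steps, 0 to 0 between replicate numbers and 3 to 5 for the slope on day. A day left with 1 library was assumed to vary like the other days. From Day 1 to Day 2, 0 of the 10 genes were called with a pseudocount of 0.1, with no filter, with eBayes without a trend and in a fit of these days alone, and 1 with quantile normalization. For the difference between the first steps 0 were called with a pseudocount of 0.1, with no filter and with eBayes without a trend. The slope on day called 7 genes with median ratio scaling. Over all 12208 genes the rising slopes called then went from 846 to 1319 and the falling ones from 1939 to 1039. The cause of these shifts was not tested.

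The difference of *Galc* from Day 0 to Day 3 turned from -0.01 to 0.14 with libraries rescaled to the same sum, 0.29 with median ratio scaling, 0.25 with quantile normalization, 0.0285 without Day 0 replicate 1 and 0.0670 without Day 3 replicate 1, within a range of -0.0891 to 0.0670 when libraries were left out. The slope of *Gal3st1* minus *Arsa* was between -0.0135 and 0.17 when libraries were left out, the former without Day 0 replicate 1, and that of *Ugt8a* minus *Galc* between 0.67 and 0.93 (exact p up to 0.0397, and 0.0794 adjusted over the pairs). With the replicate block, days were permuted within replicate numbers and the pairs gave exact p = 0.0174 and 0.552.

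Counts over all genes differed by more than 1.5 times in every comparison. From Day 0 to Day 3, 4667 genes were called, against 2739 and 2701 without replicate 1 or 2 of Day 0. From Day 0 to Day 1, 1538 were called, against 565 and 579 without these libraries and 727 without Day 1 replicate 2. From Day 1 to Day 2, 475 genes were called, against 803 with the replicate block, 247 without the filter, 121 without the trend, 11 without Day 2 replicate 2 and 0 in a fit of only these days. From Day 2 to Day 3, 36 were called, against 249 without Day 3 replicate 1, 163 with the block, 8 with a pseudocount of 0.1 and 0 without the filter, without the trend or in a fit of only these days. For the difference between the first steps, 128 were called, against 369 with the block, 202 with quantile normalization, 51 without the trend, 45 with a pseudocount of 0.1 and 16 without the filter. Between replicate numbers, 128 were called, against 72 with a pseudocount of 0.1 and 59 without the filter. For the slope on day, 2785 were called, against 1855 within replicate numbers and 1336 on ranks. *Arsa* and *Kdsr*, with about 14 to 39 fragments per library, were called from Day 0 to Day 3 with quantile normalization alone.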

Other observations

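*Cers1*, a ceramide synthase of neurons listed as *Lass1*, shares its transcript and strand with *Gdf1*, a gene for a growth factor, and the split of fragments between them is uncertain. On Day 0 *Cers1* was listed at 1.64 and 39.3 FPKM and *Gdf1* at 53.8 and 9.74, while on the later days *Cers1* was between 56.7 and 76.4 and *Gdf1* between 10.7 and 15.9. The sum of both was 55.4 and 49.1 FPKM on Day 0, then 77.2 and 85.8 (Day 1), 80.2 and 92.3 (Day 2), and 90.2 and 67.4 (Day 3). The replicates of Day 0 thus differed much less in the sum than in either gene, and the fold change of *Cers1* alone should not be read as a level of that enzyme.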
